A study of Mus musculus with 6 samples.

Results

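The transcripts of p53 and 9 of its direct target genes were examined in mouse liver tumors with and without the mitochondrial topoisomerase TOP1MT. The genes were chosen by symbol, and all 10 were found among the 30236 genes listed. They are Trp53, which encodes p53 itself, and Mdm2, Cdkn1a, Ccng1, Bax, Bbc3, Phlda3, Eda2r, Plk2 and Trp53inp1. RNA was sequenced from 3 tumors of wild-type mice (WT) and 3 tumors of mice lacking Top1mt in the germline (Top1mt-KO). All mice were male C57BL/6 littermates from heterozygous parents, so every cell of a knockout animal, and not the tumor cells alone, lacked the gene. By the study's account several litters were treated over time, and the sequenced tumors were of the same size. The litter of each tumor is not given. Both genotypes received the liver carcinogen diethylnitrosamine on day 14 after birth, then carbon tetrachloride, which injures the liver repeatedly, for 14 weeks from week 8, and tumors were collected at week 22. The values are the authors' normalized log2 expression values. The transform that made them is not named, so a difference of 1 is read as a 2-fold difference on this scale only. The number of reads behind a value is unknown.

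p53 is a transcription factor that is held at a low level by MDM2, a ubiquitin ligase that marks it for destruction. DNA damage and other stresses release p53, which then switches on genes that halt the cell cycle, aid repair or start apoptosis, and also Mdm2, which closes a feedback loop. p53 is regulated mostly as a protein, so its transcript alone is a poor guide to its activity, while the transcripts of its targets lie downstream of it. In the liver, p53 limits the expansion of damaged hepatocytes, and its loss is a frequent event in liver cancer. Neither the p53 protein nor its modification was measured here.

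The targeted gene and the makeup of the libraries were checked first. For WT replicates 1 to 3 the log2 value of Top1mt was 7.71, 5.99 and 8.01, and for KO replicates 1 to 3 it was 5.58, 6.41 and 6.32. The library labelled WT replicate 2 therefore lay inside the KO range for this gene. That value alone does not settle its genotype, and all directions below rest on the labels as given. Limma, the test used below, gave Top1mt a log2 fold change of -1.13 (standard error 0.52). The unadjusted p in limma was 0.0611 and the adjusted p was 0.999. The targeted gene itself was thus not called, so the lack of a call for a member is weak evidence of no difference. In KO replicate 1, Gm42418 took 17.7% of the summed linear values, against at most 0.387% elsewhere. Albumin, the main secreted product of hepatocytes, took at least 8.51% in every library. The difference of each member is given with and without these 2 libraries.

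None of the 10 genes passed the test for a difference between genotypes. In limma, with Benjamini-Hochberg adjustment over 22677 genes, 0 of the 10 had an adjusted p under 0.05, and each had an adjusted p of 0.999. Over all genes tested the share was 0%. The count at an unadjusted p under 0.05 was also 0 of the 10, against 4.34% of all genes. The WT and KO values overlapped for all 10, whereas 8.28% of all genes showed no overlap. In KO, 5 of the 10 were higher and 5 lower, beside 47.7% of all genes higher. The median log2 fold change of the 10 was -0.021, beside -0.015 over all genes. Without WT replicate 2 the split was 3 higher and 7 lower, and without KO replicate 1 it was 5 and 5, with 0 members past the adjusted threshold in both cases. Fewer libraries overlap less often. Without KO replicate 1 the groups did not overlap for 3 of the 10, Trp53, Ccng1 and Eda2r, against 21.5% of all genes, and without WT replicate 2 for 0 of the 10, against 18.3%. With 3 tumors per genotype an exact permutation test allows no p below 0.1. The labels do not say which animal each tumor came from, so p-values measure only the spread between these tumors. Bulk RNA also cannot tell fewer cells of a type from less RNA per cell.

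**Figure D1:**
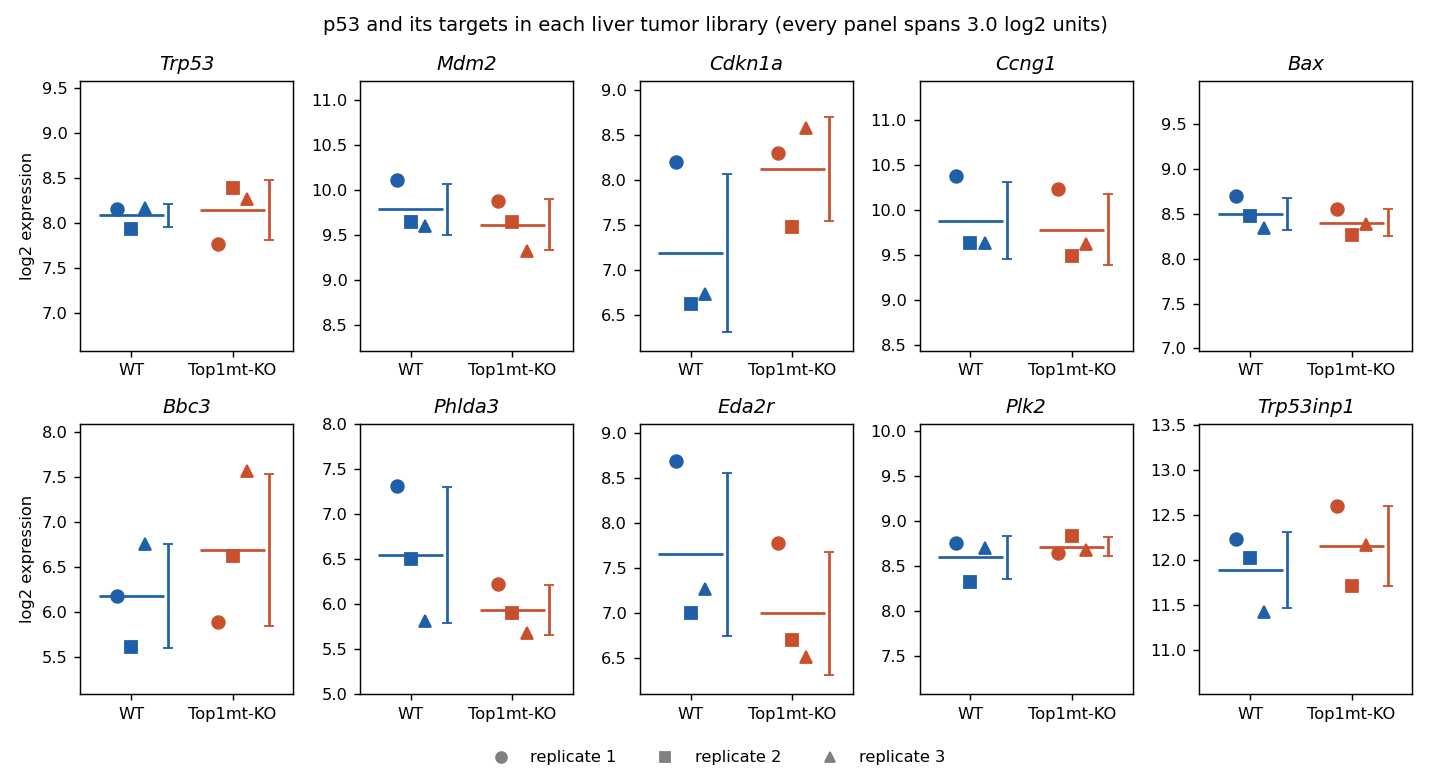
Log2 expression (vertical axes, each spanning the same number of log2 units) of Trp53 and its 9 targets in the WT and Top1mt-KO libraries, with 1 point per library, marker shape for the replicate number, a horizontal line at the group mean and a side bar of 1 SD either way (n = 3). The groups overlap in all 10 panels, and WT replicate 1 is the highest library for Mdm2, Ccng1, Bax, Phlda3 and Eda2r.

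Trp53 itself varied little, and its values overlapped between genotypes. Replicates 1, 2 and 3 of WT gave log2 values of 8.16, 7.93 and 8.16, and those of KO gave 7.76, 8.39 and 8.27. KO replicate 1 was the lowest and KO replicate 2 the highest, so both extremes belonged to the knockout group. The WT mean was 8.08 ± 0.13 (SD, n = 3) and the KO mean 8.14 ± 0.33 (SD, n = 3). The log2 fold change was thus 0.06 (standard error 0.20, exact two-sided permutation test, p = 0.8). It was -0.017 without WT replicate 2 and 0.25 without KO replicate 1, and its sign turned also without KO replicate 2 or KO replicate 3. The gene lies at chr11:69580359-69591873 on the plus strand of GRCm38.

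The 17 genes that act on p53 from above, fixed as a list of its kinases, ligases and cofactors, moved little. In KO, 10 were higher and 7 lower, beside 47.7% of all genes higher. The median log2 fold change of the list was 0.063. An unadjusted p under 0.05 was reached by 0 of the 17, beside 4.34% of all genes. The 4 with the smallest p were Prkdc, Atm, Rfwd2 and Kat5. Prkdc, the catalytic subunit of the DNA-dependent protein kinase, had a log2 fold change of -0.17 (SE 0.17). Atm, the kinase that phosphorylates p53 after double-strand breaks, had one of 0.13 (SE 0.13), as did Rfwd2, a ubiquitin ligase also called COP1. Kat5, an acetyltransferase also called TIP60, had one of 0.20 (SE 0.23). The library KO replicate 1 was the highest of the 6 for 9 of the 17, whereas it was the highest for 18.8% of all genes. Among them were the ribosomal proteins Rpl11, at 12.19 against 10.94 to 11.43 elsewhere, and Rpl5, at 11.84 against 10.93 to 11.31, which bind and inhibit MDM2. Without KO replicate 1 the median of the list was -0.056, with 7 genes higher.

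Some target promoters hold the element that p53 recognises, and the sequences that match it are shown here as a description. The 9 targets were chosen as p53 targets, so a larger share of matches among the members is no independent evidence. p53 binds as a tetramer to paired half-sites of 10 bases. The p53 half-site consensus was searched, by its name alone, on both strands of the RefSeq promoters of GRCm38.p6, from 250 bases before to 50 bases after each start. A promoter was available for 9 of the 10 members, all but Trp53inp1. At least 1 half-site without a mismatch was present in 5 of these 9, namely Bax, Ccng1, Cdkn1a, Mdm2 and Trp53, against 9.55% of all genes with a promoter and 8.36% of all promoters. Paired half-sites with at most 2 mismatches in all and at most 13 bases between them were present in 3, Bax, Ccng1 and Cdkn1a, against 4.71% of all genes and 4.09% of all promoters. The window with the shortest spacer in each is printed 5′ to 3′ on the strand of the gene, with the half-sites in capitals.
Cdkn1a, chr17:29090908-29090967, plus strand, 1 mismatch: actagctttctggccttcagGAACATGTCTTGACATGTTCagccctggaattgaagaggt
Ccng1, chr11:40755442-40755501, minus strand, 1 mismatch: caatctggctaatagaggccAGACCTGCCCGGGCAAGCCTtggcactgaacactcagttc
Bax, chr7:45467059-45467119, minus strand, 2 mismatches and 1 base between the half-sites: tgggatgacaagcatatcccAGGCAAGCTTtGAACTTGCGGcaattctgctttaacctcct
The first base in capitals lay 51, 195 and 201 bases before the start in Cdkn1a, Ccng1 and Bax. For Cdkn1a this is the more upstream of the starts searched. The promoter of its other start, chr17:29093519-29093818, held 0 half-sites and 0 paired sites. A match describes these letters and is not evidence of binding, and the lack of one in Bbc3, Eda2r, Phlda3 and Plk2 says only that the window searched does not hold it.

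Mdm2 and Ccng1 both feed back on p53. Mdm2 had log2 values of 10.11, 9.65 and 9.61 in WT and 9.88, 9.64 and 9.32 in KO, for replicates 1, 2 and 3 in each case. The highest value was in WT replicate 1 and the lowest in KO replicate 3, with the other 4 libraries between them and the genotypes interleaved. The log2 fold change was -0.17 (standard error 0.20, exact two-sided permutation test, p = 0.5). It was -0.24 without WT replicate 2 and -0.31 without KO replicate 1, but -0.0097 without WT replicate 1 and -0.024 without KO replicate 3. Ccng1 encodes cyclin G1, which recruits a phosphatase to MDM2. It had values of 10.39, 9.64 and 9.64 in WT and 10.24, 9.49 and 9.63 in KO. The first replicate of each genotype stood above the other 4 libraries, which lay close together. The log2 fold change of Ccng1 was -0.10 (standard error 0.27, exact two-sided permutation test, p = 0.5), and it was 0.15 without WT replicate 1, -0.23 without WT replicate 2 and -0.33 without KO replicate 1.

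Cdkn1a showed the largest difference in size among the 10 genes, and it was not past the threshold. It encodes p21, the inhibitor of cyclin-dependent kinases through which p53 halts the cell cycle. The more upstream of its promoters holds the paired site with 1 mismatch printed above. Its log2 values were 8.19, 6.62 and 6.73 in WT and 8.30, 7.47 and 8.58 in KO. All 3 KO tumors lay above WT replicates 2 and 3, and WT replicate 1 lay among the KO tumors. The WT mean was 7.18 ± 0.88 (SD, n = 3) and the KO mean 8.12 ± 0.58 (SD, n = 3), a fold change of 1.92 (log2 0.94, standard error 0.46). Limma gave an unadjusted p of 0.0747 and an adjusted p of 0.999, and the exact two-sided permutation test gave p = 0.2. The difference depended on single libraries. It was 1.44 without WT replicate 1, with an unadjusted p of 0.00443 and an adjusted p of 0.994 in limma. Without KO replicate 2 the difference was 1.26, with an unadjusted p of 0.0295 and an adjusted p of 0.962 in limma. It was 0.71 without WT replicate 3 and also 0.71 without KO replicate 3. Without WT replicate 2, whose Top1mt value lay inside the KO range, it was 0.66, and without KO replicate 1 it was 0.85. The spread of Cdkn1a within genotypes, a residual SD of 0.744, was larger than that of 84.6% of all genes. In the annotation used here, 273 of its exonic bases lie opposite a gene on the other strand, AC167363.2, and the strand setting of the counting is not given in the sources used here.

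Phlda3 and Plk2 act on growth and cell cycle signalling. Phlda3 encodes a small protein that keeps the kinase AKT from the membrane. Its values were 7.32, 6.50 and 5.81 in WT and 6.23, 5.90 and 5.68 in KO. WT replicates 1 and 2 lay above all KO tumors, and WT replicate 3 lay within the KO range. The log2 fold change was -0.61 (standard error 0.39, exact two-sided permutation test, p = 0.3), and it depended on the WT tumors. It was -0.97 without WT replicate 3, with an unadjusted p of 0.0273 in limma, but -0.22 without WT replicate 1, with an unadjusted p of 0.545. Without WT replicate 2 it was -0.63 and without KO replicate 1 it was -0.75. Plk2, a polo-like kinase, had values of 8.76, 8.32 and 8.71 in WT and 8.64, 8.83 and 8.68 in KO. WT replicate 2 was low and the other 5 libraries lay close together, with a log2 fold change of 0.12 (SE 0.16, exact two-sided permutation test, p = 0.6) that was -0.015 without that library and 0.16 without KO replicate 1.

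The 4 members tied to cell death did not move in a common direction. Bax, which opens the outer mitochondrial membrane in apoptosis, had log2 values of 8.69, 8.47 and 8.34 in WT and 8.55, 8.26 and 8.38 in KO. It varied the least of the 10, with a residual SD larger than that of only 15.5% of all genes, and its log2 fold change was -0.10 (SE 0.16, exact two-sided permutation test, p = 0.6), with -0.12 without WT replicate 2 and -0.18 without KO replicate 1. In the annotation, 192 of its exonic bases are shared with Gm45808 on the same strand. Bbc3, which encodes PUMA, a BH3-only protein that releases BAX from its inhibitors, ranged more widely. Its values were 6.17, 5.61 and 6.76 in WT and 5.89, 6.62 and 7.57 in KO. KO replicate 3 was the highest and WT replicate 2 the lowest, and KO replicate 1 lay below 2 of the WT tumors. The log2 fold change of Bbc3 was 0.51 (standard error 0.47, exact two-sided permutation test, p = 0.5), and it moved widely with single libraries, to 0.22 without WT replicate 2, 0.91 without KO replicate 1 and 0.072 without KO replicate 3.

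Eda2r, a receptor of the tumor necrosis factor family, had the widest range of the 10 genes, 4.51-fold between the highest and the lowest library. Its log2 values were 8.68, 6.998 and 7.27 in WT and 7.78, 6.69 and 6.51 in KO. WT replicate 1 stood well above all others, and KO replicate 1 came next. The log2 fold change was -0.66 (standard error 0.49, exact two-sided permutation test, p = 0.5), and it ran from -1.05 to -0.14 with a library left out. Without WT replicate 1 it was -0.14, without WT replicate 2 it was -0.98, and without KO replicate 1 it was -1.05. Trp53inp1 encodes a nuclear stress protein that promotes the activating phosphorylation of p53. Its values were 12.22, 12.01 and 11.41 in WT and 12.60, 11.71 and 12.16 in KO, interleaved between genotypes, with a log2 fold change of 0.27 (SE 0.28, exact two-sided permutation test, p = 0.5). It was 0.34 without WT replicate 2 and 0.051 without KO replicate 1, and also 0.037 without WT replicate 3 and 0.50 without KO replicate 2.

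**Figure D2:**
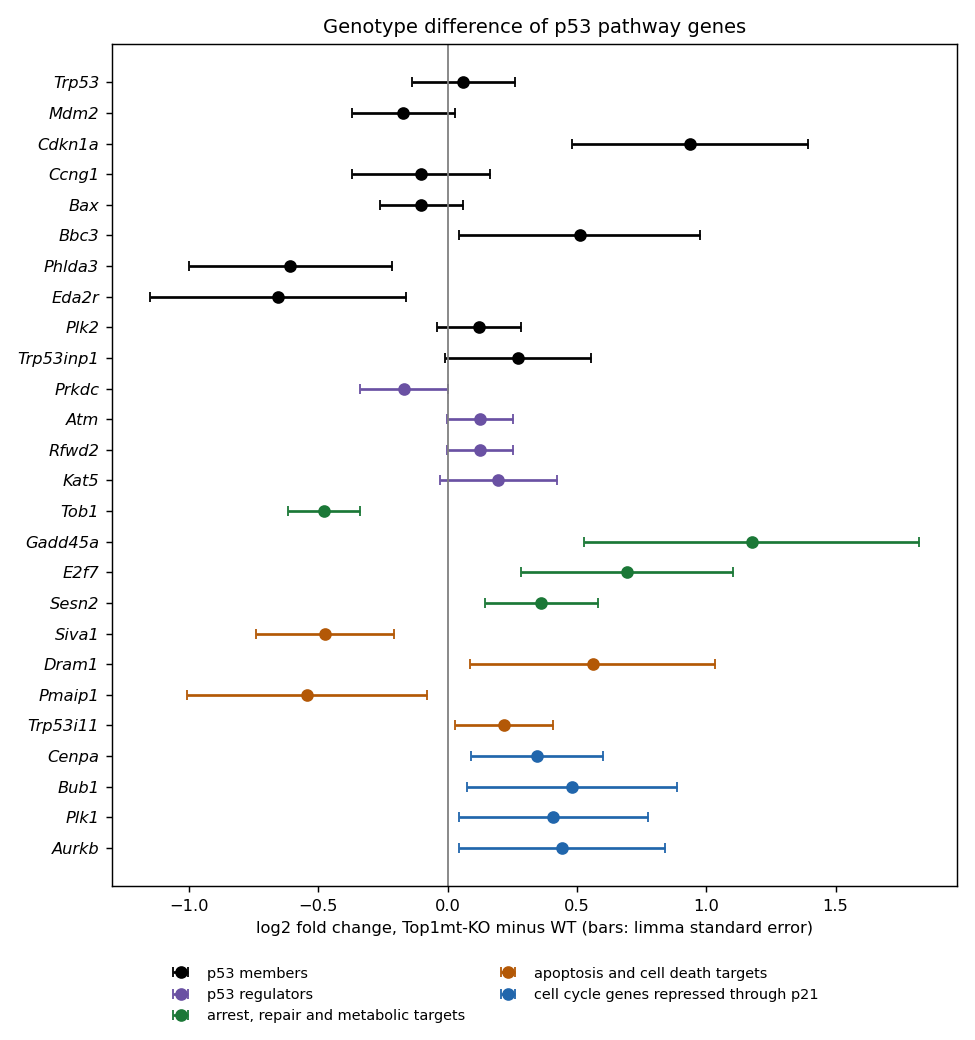
Log2 fold change of Top1mt-KO over WT (horizontal axis) for the 10 members and 16 genes of the wider p53 lists, with bars of 1 standard error from limma, coloured by list. Cdkn1a lies at 0.94 and Eda2r at -0.66, and of the genes drawn only Tob1 has an unadjusted p under 0.05.

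The wider p53 program was read from lists of other targets. Among 23 genes of arrest, repair and metabolism, 9 had a positive and 14 a negative difference in KO, beside 47.7% of all genes positive. The median log2 fold change of the 23 was -0.18, and 0 passed the adjusted threshold. An unadjusted p under 0.05 was reached by 1 of the 23, beside 4.34% of all genes. Leaving out KO replicate 1 raised it to 6 of the 23, beside 5.98% of all genes, with 12 higher and a median of 0.0063, and without WT replicate 2 it was 1, with 7 higher and a median of -0.17. Tob1, an antiproliferative protein that recruits mRNA deadenylases, was that gene in the full set of libraries. Groups did not overlap for 1 of the 23, again Tob1, beside 8.28% of all genes. It had log2 values of 10.29, 10.49 and 10.28 in WT and 10.04, 9.86 and 9.73 in KO, every KO tumor below every WT tumor. Its log2 fold change was -0.48 (standard error 0.14), an unadjusted p of 0.0092 and an adjusted p of 0.999 in limma, and it lay between -0.56 and -0.40 with each library left out. Gadd45a, a damage-induced regulator of repair and arrest, had values of 4.86, 5.37 and 6.16 in WT and 5.57, 6.22 and 8.11 in KO. KO replicate 3 alone was far above the rest, and the log2 fold change of 1.18 (SE 0.65) fell to 0.44 without it. E2f7, a repressor of the cell cycle, had a log2 fold change of 0.69 (SE 0.41), and Sesn2, a sestrin that restrains mTORC1, one of 0.36 (SE 0.22).

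The KO tumors had more of 6 and less of 8 of the 14 tested genes of apoptosis and cell death, beside 47.7% of all genes higher. An unadjusted p under 0.05 was reached by 0 of the 14, beside 4.34% of all genes. The median was -0.096, and it was -0.016 without WT replicate 2 and -0.039 without KO replicate 1. Groups did not overlap for 1 of the 14, beside 8.28% of all genes. That gene was Siva1, a pro-apoptotic protein. It had log2 values of 5.99, 6.24 and 6.53 in WT and 5.88, 5.54 and 5.91 in KO, with a narrow gap between the highest KO and the lowest WT tumor. Its log2 fold change was -0.47 (standard error 0.27). Dram1, a lysosomal protein needed for p53-induced autophagy, had one of 0.56 (SE 0.47). Pmaip1, which encodes the BH3-only protein NOXA, had one of -0.54 (SE 0.46), and Trp53i11 one of 0.22 (SE 0.19).

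Genes that p53 represses through p21 are recorded by a list of 20 cell cycle genes, which the DREAM complex silences when p21 blocks the kinases. In KO 16 were higher and 4 lower, beside 47.7% of all genes higher. The median log2 fold change of the 20 was 0.26. An unadjusted p under 0.05 was reached by 0 of the 20, beside 4.34% of all genes. Groups did not overlap for 0 of the 20, beside 8.28% of all genes. Without WT replicate 1 the split was 11 higher and 9 lower and the median was 0.016. Without WT replicate 3 it was 17 and 3, with a median of 0.49. In that setting 2 of the 20 had an unadjusted p under 0.05, beside 922 of the 22677 genes tested. The median was 0.22 without WT replicate 2 and 0.18 without KO replicate 1. Cenpa, the centromeric histone, had log2 values of 7.32, 8.08 and 7.55 in WT and 8.35, 7.69 and 7.94 in KO, and a log2 fold change of 0.35 (SE 0.25). Bub1, a kinase of the spindle checkpoint, had a log2 fold change of 0.48 (SE 0.41), Plk1, a mitotic polo-like kinase, one of 0.41 (SE 0.37), and Aurkb, a kinase of chromosome segregation, one of 0.44 (SE 0.40). The letters TTTGAA, the element called CHR through which DREAM reaches these promoters, were present on either strand in 11 of the 16 genes of the list with a promoter (68.8%), against 20.2% of all genes with one.

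**Figure D3:**
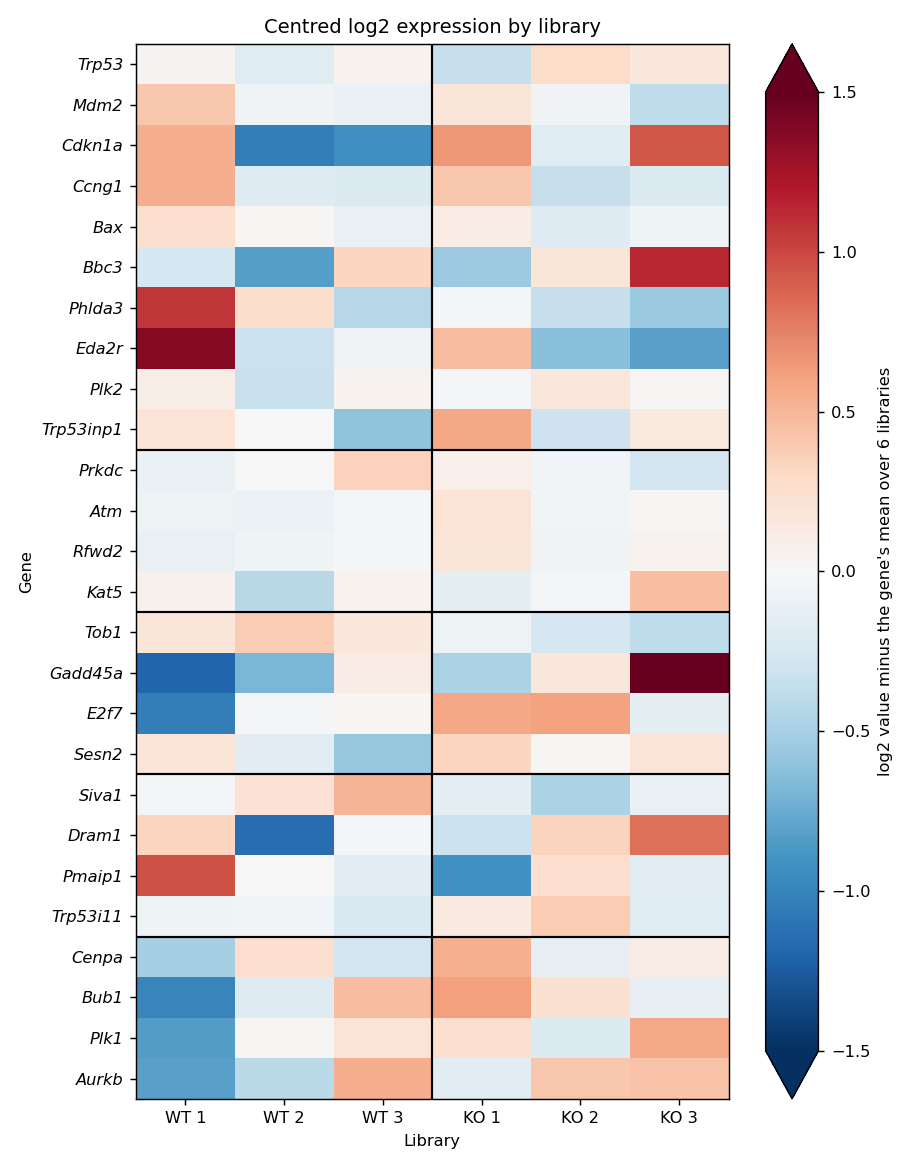
Centred log2 expression (colour, the value minus the gene's mean over 6 libraries) of the 10 members and the 16 named genes of the wider lists (rows, grouped by list) in each library (columns). WT replicate 1 is red for most targets and blue for the 4 cell cycle genes at the bottom.

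The 9 targets varied from tumor to tumor within each genotype. Averaged over the 9, the centred log2 value was 0.470, -0.277 and -0.227 in the WT tumors and 0.20, -0.189 and 0.022 in the KO tumors, in the order of their replicate numbers. Both genotypes therefore held a tumor with high and a tumor with low targets, and the highest and the lowest of the 6 were both WT. WT replicate 1 was the highest library for 5 of the 9 targets, Mdm2, Ccng1, Bax, Phlda3 and Eda2r, against 17.1% of all genes. The cell cycle genes ran the other way in that tumor. WT replicate 1 was the lowest library for 16 of the 20, against 17.4% of all genes, and the mean of the list was -0.638 there. WT replicate 3 was the highest for 11 of the 20, against 16.7% of all genes, with a list mean of 0.397.

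WT replicate 1 also differed in cell type markers. It was the highest library for 6 of 7 stellate and fibroblast markers, against 17.1% of all genes. Their summed level on the log2 scale was 13.9, 12.5 and 12.4 in WT replicates 1 to 3. In KO replicates 1 to 3 it was 11.5, 13.4 and 12.6. The summed bile duct markers were 11.6 to 12.6 in WT and 11.7 to 12.6 in KO. These sums follow Spp1, at 11.3 to 12.6, since the other 5 genes lay between 2.09 and 7.59. Among those, the keratin Krt19 was lower in KO without overlap (log2 fold change -2.68, adjusted p in limma 0.987). So was the adhesion molecule Epcam (log2 fold change -1.19, adjusted p in limma 0.999). The groups overlapped for Krt7, which differed by -2.20, and for Cftr, by -0.70. They also overlapped for Sox9, which differed by 0.15, and for Spp1, by 0.045. Groups without overlap were thus seen for 2 of the 6 markers, beside 8.28% of all genes. The sums of the hepatocyte markers were 20.9 to 21.5 in WT and 21.1 to 21.7 in KO, and those of macrophage, lymphocyte and endothelial markers overlapped likewise. Some single markers in these lists did not overlap. They were 1 of 8 for hepatocytes (Ttr, higher in KO) and 2 of 7 for lymphocytes (Cd3g higher, Cd3e lower). For endothelium they were 2 of 6 (Pecam1 and Cdh5, both higher). For macrophages and for stellate cells and fibroblasts they were 0 of 7 each. The part of these cells in the level of any p53 target was not tested.

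**Figure D4:**
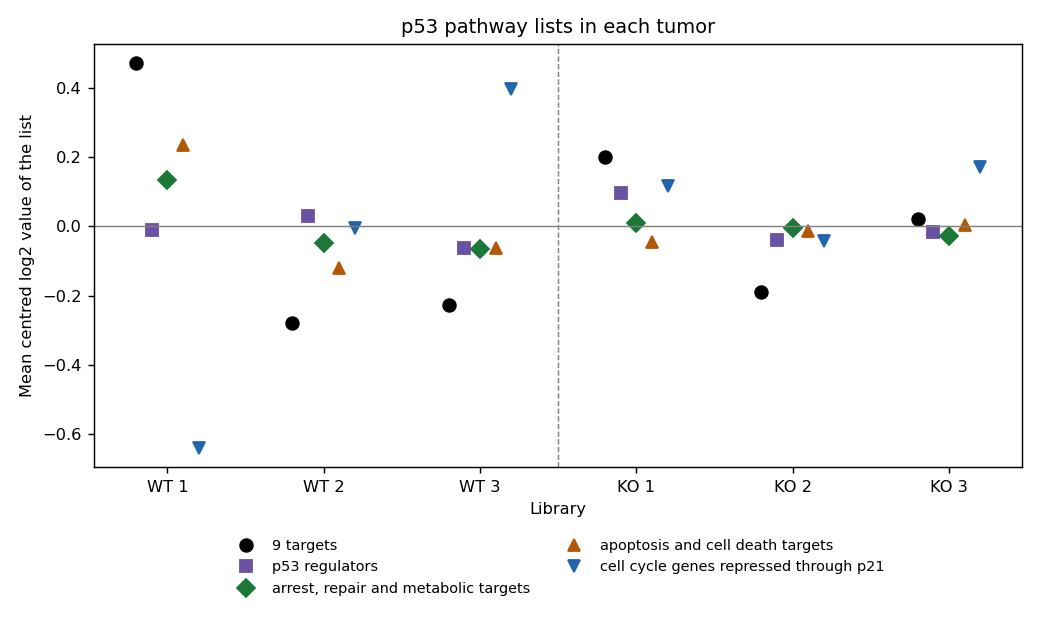
Mean centred log2 value (vertical axis) of the 9 targets, the p53 regulators and the 3 lists of p53-dependent genes in each library (horizontal axis, WT left and KO right of the dashed line). In WT replicate 1 the 9 targets reach 0.470 and the cell cycle genes -0.638, the widest separation of the 6 libraries.

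Across tumors the targets had no common direction against the Trp53 transcript. Of the 9 targets 3 had a positive Pearson's r with Trp53 over the 6 libraries, and the median was -0.38. It was -0.67 without WT replicate 1 and between -0.211 and -0.20 without any 1 KO library. The closest to Trp53 was Bbc3 (r = 0.716, permutation p = 0.107, Spearman's rho = 0.771, exact permutation p = 0.103), with r = 0.912 without KO replicates 1 and 2, the libraries farthest from the median of Trp53. The lowest was Trp53inp1 (r = -0.601, exact permutation p = 0.2, rho = -0.600, exact permutation p = 0.242), with r = 0.048 without the same libraries. Cdkn1a had a positive Pearson's r with all 8 other targets, with a median of 0.37, but Spearman's rho was negative for 3 of them, Mdm2 (-0.086), Eda2r (-0.086) and Phlda3 (-0.314). With 1 library left out r was negative for some pairs too, as for Phlda3 without WT replicate 1 (-0.388) and Plk2 without WT replicate 2 (-0.354). The highest was with Trp53inp1 (r = 0.711, exact permutation p = 0.122, rho = 0.657, exact permutation p = 0.175). It was 0.731 without WT replicates 2 and 3. Adjusted over these 17 relations the smallest p was 0.665.

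The other 28 pairs of targets were added after the values had been seen. Of these 19 were positive, with a median r of 0.40, and 8 had a raw permutation p under 0.05. Adjusted over all 45 pairs of the 10 genes, 0 passed 0.05 and the smallest p was 0.156. Mdm2, Ccng1, Bax, Phlda3 and Eda2r, picked for their likeness, had r between 0.752 and 0.935 in their 10 pairs, with a median of 0.864. Without WT replicate 1 this median was 0.671, and without any other single library it was 0.877 to 0.904. The tightest pair was Mdm2 and Eda2r (r = 0.935, exact permutation p = 0.00694, adjusted 0.156, rho = 0.829, exact permutation p = 0.0583), with r = 0.792 without WT replicate 1 and KO replicate 3. Ccng1 and Bax had r = 0.927 (exact permutation p = 0.00417, adjusted 0.156, rho = 0.943, exact permutation p = 0.0167), and r = 0.786 without the first replicate of each genotype. Bbc3 stood apart from these genes, with r = -0.670 against Mdm2 (exact permutation p = 0.147, rho = -0.771, exact permutation p = 0.103), and -0.474 without WT replicate 1 and KO replicate 3.

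**Figure D5:**
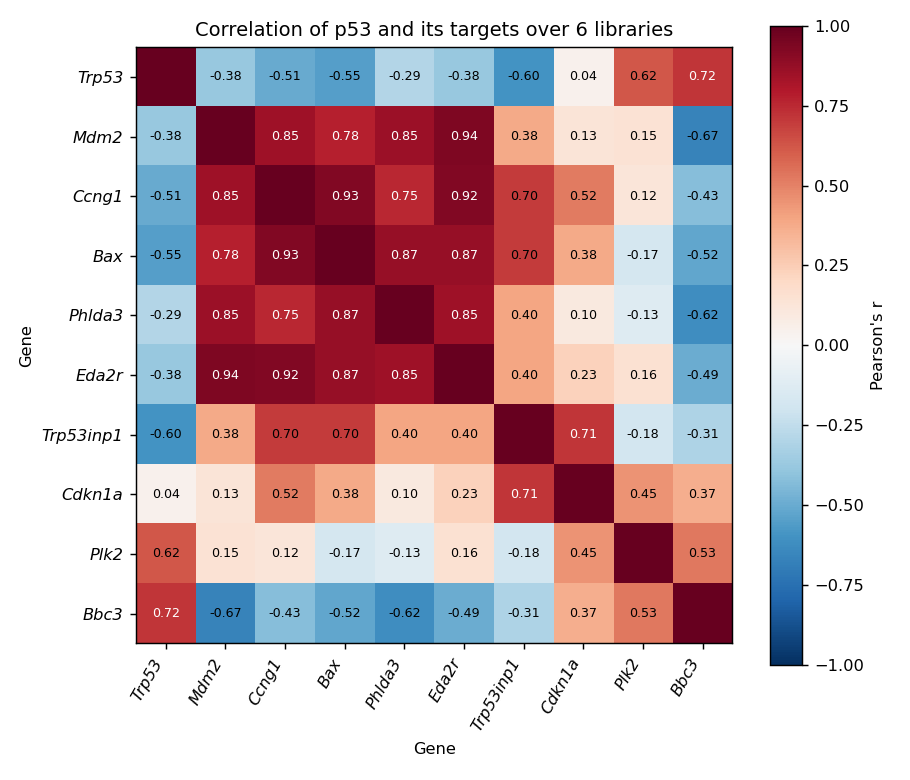
Pearson's r over the 6 libraries (colour and printed value) between each pair of the 10 genes, ordered so that like genes are adjacent. Mdm2, Ccng1, Bax, Phlda3 and Eda2r form a block with r of 0.75 to 0.94, and Trp53 is negative against 6 of the 9 targets.

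The wider lists were compared with the mean of the 9 targets in the same way, as a description over 6 libraries. The median r was 0.32 for the 23 arrest, repair and metabolic genes, 0.38 for the 14 apoptosis genes, 0.13 for the 17 regulators and -0.55 for the 20 cell cycle genes, of which 2 were positive. Over all genes the median was 0.014, and 51.3% were positive. Among single members r with this mean, which includes the gene itself, was highest for Ccng1 (0.912) and Bax (0.824) and near 0 for Bbc3 (-0.083). Outside the lists the genes most like the mean were Npy4r (r = 0.989), Gm22063 (0.988) and Dpysl5 (0.985), all of them near the bottom of the scale.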

How the data were processed

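Expression was measured in 3 WT and 3 Top1mt-KO liver tumors. Sample titles gave the genotype and replicate. The values deposited by the authors are log2 expression values per gene symbol, normalized between libraries, from -2.24 to 22.0. The transform is not named, so fold changes are differences on this scale. Per the study's methods, the authors' reads from stranded libraries were trimmed with Trimmomatic, aligned with BWA to a genome given as Mm 8, restricted to uniquely mapped reads, counted with featureCounts and compared with DESeq2. The submitters' processing notes list bcl2fastq 2.17, Trimmomatic 0.36 and Subread, but STAR 2.5.1 and GRCm38 in place of that aligner and genome, and the conflict could not be settled. Read totals cannot be recovered, so depth is unknown and no count model was run. Values of different genes are not per length and were not compared. The file also held a few leftover cells in unnamed columns, which were not used.

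The comparison of genotypes was made in R 4.3.3 with limma 3.58.1 (lmFit and eBayes with a trend, Benjamini-Hochberg adjustment, threshold 0.05) over 22677 genes, leaving out the 25% with the lowest means. All 10 members passed this filter, as did 74 of the 75 genes of the 4 wider lists. Exact two-sided permutation tests used 20 regroupings for single genes and 720 pairings for correlations, which allow no p below 0.1 and 0.0028. Same-numbered libraries had correlated deviations of -0.12, -0.076 and 0.052, and the tumors were treated as unpaired. Genes named from each wider list are the 4 with the smallest p. Gene positions are from GENCODE M21 on GRCm38 and promoters from RefSeq, GRCm38.p6. The fit was also run on simulated data with independent normal noise and added shifts, as a check of the code only. The members and lists were chosen with earlier results of these data known.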

Additional observations from a re-analysis of the deposited data

How the results depend on the processing

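The alternatives were a replicate block, quantile normalization, limma without its trend, dropping the filter or raising it to the median, and leaving out each library. Under all of them 0 of the 10 members passed an adjusted p of 0.05, and the smallest adjusted p of any member was 0.861. Of the 10 members 7 kept their direction under all 11 alternatives. With a library left out, the log2 fold change ran from -0.065 to 0.249 for Trp53, from -0.328 to 0.147 for Ccng1 and from -0.015 to 0.202 for Plk2, so their signs turned. Over all genes, limma called 0 to 1 with a library left out (1 without KO replicate 1) and 4 with no filter. Genes at an unadjusted p under 0.05 numbered 590 with the filter at the median, where fewer genes were tested. The replicate block, whose numbers do not pair the tumors, gave 0 calls and 912 of the 22677 genes at an unadjusted p under 0.05. Of the 10 members 2 were among them, Cdkn1a (an unadjusted p of 0.0283 in limma) and Eda2r (one of 0.0228). Unadjusted p-values under 0.05 were also reached by Cdkn1a without WT replicate 1 or KO replicate 2 and by Phlda3 without WT replicate 3. The list medians ran from -0.056 to 0.083 for the regulators and from -0.270 to 0.0063 for the arrest, repair and metabolic targets with a library left out, and from 0.016 to 0.49 for the cell cycle genes. The cause of these changes was not tested. The median correlation of Cdkn1a with the other targets was 0.659 on deviations from genotype means. With 3 tumors per genotype and unknown depth, differences of the size seen here in Cdkn1a, Eda2r or Phlda3 cannot be told from the spread between tumors.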
